A study of Mus musculus with 4 samples.

Results

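Cholesterol and fatty acids are built in the cytosol from acetyl-CoA, and the genes of both routes were compared between effector CD4 cells that had entered the CNS and those in the draining lymph node (dLN) during experimental autoimmune encephalomyelitis (EAE), a mouse model of multiple sclerosis. The set holds 38 of the 23990 gene symbols in the deposited tables. It was taken by gene name, as 18 sterol synthesis enzymes, 6 genes of sterol sensing and intracellular sterol transfer, 9 fatty-acid synthesis genes and 5 genes of sterol efflux and storage.

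In animal cells the mevalonate route turns acetyl-CoA into isoprenoid units, joins these to squalene and folds squalene into lanosterol, which a chain of membrane enzymes trims to cholesterol. When membrane sterol is low, Scap carries the Srebp transcription factors from the endoplasmic reticulum to the Golgi for cleavage, and the freed factors switch on synthesis genes. Insig proteins hold that complex back when sterol is plentiful, and oxysterols then activate the liver X receptors, which switch on exporters such as Abca1 and Abcg1. T cells that enter the cell cycle are known to raise sterol and fatty-acid synthesis to make membrane.

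RNA came from wild type C57BL/6 mice immunized with MOG, a myelin antigen, and taken at disease onset, with 2 libraries of CNS cells and 2 of dLN cells, so every group shared strain, genotype and immunization. The study's methods describe CD44+CD4 cells sorted from pooled dLN and from spinal cords and then stimulated with PMA and ionomycin, whereas the labels describe freshly sorted cells and name no stimulation. Ages were not given in the sources used here, and nothing states how many mice stand behind a library, so p-values measure only the spread between these 4 libraries. Values are FPKM, fragment numbers scaled by transcript length and library depth, which allow levels of different genes to be set side by side.

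The steps between low FPKM values put the depth of the libraries between 18.2 M and 21.8 M fragments. All 9 CD4 T cell markers were at 1 FPKM or more in every library, and their sum was 3202 and 3213 FPKM for CNS cells and 1486 and 1389 FPKM for dLN cells. Of these, Cd3e, Cd3d, Cd3g, Cd4, Cd28 and Lck were higher in both CNS libraries, Cd5 and Cd44 were lower, and Cd2 overlapped. The 16 myeloid markers summed to 28.9 FPKM in CNS replicate 1, to 257 FPKM in CNS replicate 2 and to 4.69 and 4.05 FPKM in the dLN libraries, where 9 and 11 of them were at 0. The 9 astrocyte and neuron markers summed to 2.58, 11.98, 0.552 and 0.403 FPKM in the same order. The 8 oligodendrocyte markers summed to 132 and 123 FPKM in the CNS and to 64.5 and 63.1 FPKM in the dLN. Of these, Cnp was at 82.8 and 77.5 FPKM in the CNS against 8.80 and 5.12 FPKM in the dLN. Mbp was lower in the CNS, at 48.6 and 44.5 FPKM against 55.5 and 57.7 FPKM, and Mog and Mag stayed at or below 0.0825 FPKM. The 6 B cell markers summed to at most 1.97 FPKM and the 7 CD8 T and NK cell markers to at most 10.1 FPKM. The Y-linked gene Ddx3y (12.7 and 11.2 FPKM) was found in the CNS libraries only and was at 0 in the dLN. The reverse held for Xist, with 26.6 and 22.3 FPKM in the dLN against 0 and 0.0026 FPKM in the CNS, so tissue and sex of the mice cannot be told apart.

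A gene was tested where its mean reached 1 FPKM in the CNS or in the dLN, which left 10634 genes. They were compared by limma on log2(FPKM + 1), with Benjamini-Hochberg adjustment over all of them. A gene was called at an adjusted p under 0.05. Every log2 ratio below is CNS minus dLN on this scale, with its standard error (SE), and understates the change of genes with low FPKM. Of the 38 genes, 35 were tested and 29 of them (82.9%) were called, where 74.9% of all genes tested were called. The call was higher in the CNS for 13 of them, or 37.1%, against 37.8% of all genes tested, and lower in the CNS for 16, or 45.7%, against 37.2%. A further 6 were not called. Their median log2 ratio was -0.21, beside 0.05 over all genes tested, whose 10th and 90th percentiles were -1.52 and 1.70. Among called changes of at least 1 on the log2 scale, 6 of the 35 were higher, where 2230 of 10634 genes tested (21.0%) were. Likewise 10 of the 35 were lower, where 1938 of 10634 (18.2%) were. Both CNS libraries lay on one side of both dLN libraries for 33 of the 35 tested genes, where 89.4% of all genes tested did so. Fewer cells of a type and less RNA per cell cannot be told apart in such bulk samples. Counts of calls varied by library, with 10 higher and 16 lower without CNS replicate 2, and 10 higher and 13 lower without CNS replicate 1.

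**Figure D1:**
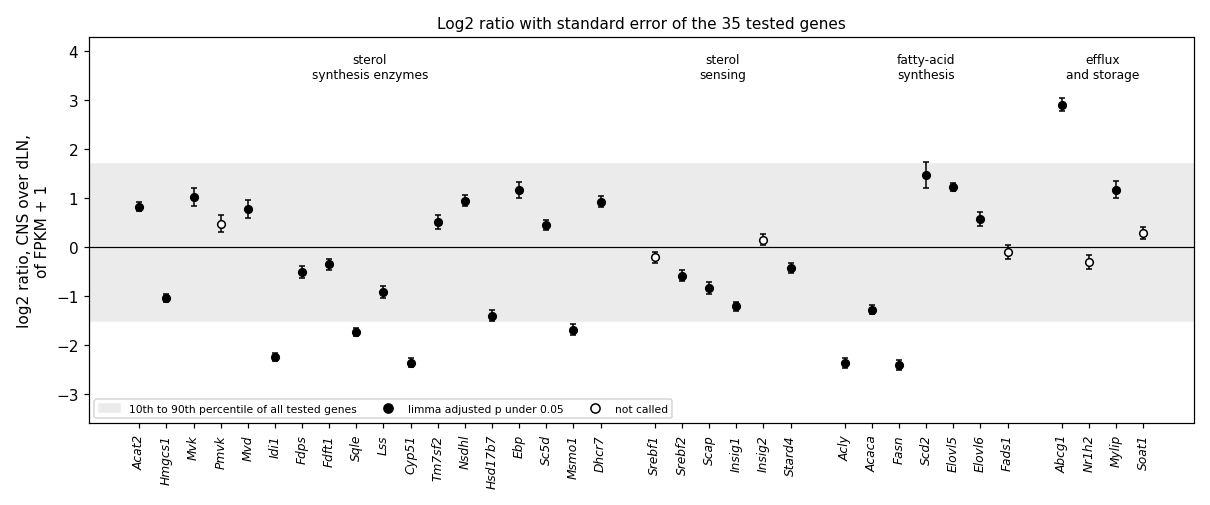
Log2 ratio (CNS minus dLN, log2(FPKM + 1) scale) of the 35 tested genes by role, with bars of 1 SE from limma. Filled points were called, open points were not, and the grey band runs from the 10th to the 90th percentile of all genes tested. Over all groups the values run from Fasn at -2.41 to Abcg1 at 2.91, and the sterol enzymes and the fatty-acid genes each hold called genes on both sides of 0.

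Of the 18 sterol synthesis enzymes, 8 (44.4%) were higher in the CNS and 9 (50%) lower, where all genes tested also divided evenly at 37.8% and 37.2%. A single one was not called, and the median log2 ratio was 0.05, the same as over all genes tested. Their called changes of at least 1 in size were 2 of 18 higher and 6 of 18 lower, where 21.0% and 18.2% of all genes tested were. Summed over the 18, their FPKM was 222 and 225 in the CNS libraries and 371 and 343 in the dLN libraries. Idi1, Cyp51 and Msmo1 had the 3 largest differences in mean FPKM among them, and all 3 were lower in the CNS.

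Among the 5 enzymes measured along the early mevalonate steps, 3 were called higher in the CNS, 1 lower and 1 was not called. Of all genes tested, 37.8% were called higher and 37.2% lower. Acat2, which joins acetyl-CoA units to start the route, stood at 10.7 and 10.5 FPKM in the CNS and at 5.45 and 5.64 FPKM in the dLN (log2 ratio 0.83, SE 0.09, adjusted p = 0.00092). Its near copy Acat3 moved in parallel, with 1.73 and 1.59 FPKM in the CNS and 0.703 and 0.627 FPKM in the dLN, and reads of the pair may have been shared. Hmgcs1, which makes HMG-CoA in the next step, was the lower one, at 15.0 and 15.7 FPKM in the CNS against 32.2 and 33.1 FPKM in the dLN. Its mean was 15.4 ± 0.459 (SD, n = 2) in the CNS and 32.7 ± 0.634 in the dLN (log2 ratio -1.04, SE 0.08, adjusted p = 0.000375). Mvk, the kinase that acts on mevalonate, was higher in the CNS, at 3.42 and 4.37 FPKM against 1.69 and 1.14 FPKM, a 2.76-fold ratio of means (log2 ratio 1.03, adjusted p = 0.00481). Pmvk, the following kinase, stood at 9.45 and 12.7 FPKM in the CNS and at 8.31 and 6.85 FPKM in the dLN, without overlap, but was not called (log2 ratio 0.48, SE 0.17, adjusted p = 0.0516). Pmvk was called higher under 6 of the 16 alternatives, among them without CNS replicate 1 (adjusted p = 0.0476) and with the same upper quartile per library (adjusted p = 0.0185), and stood at a log2 ratio of 0.29 without CNS replicate 2 (adjusted p = 0.230) and 0.31 with the same sum per library (adjusted p = 0.130). Mvd, which releases isopentenyl diphosphate, was higher in the CNS, at 11.9 and 13.7 FPKM against 8.33 and 5.80 FPKM (log2 ratio 0.79, adjusted p = 0.0128). That call was lost without CNS replicate 1 (adjusted p = 0.0721) and without CNS replicate 2 (adjusted p = 0.112).

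From the isoprenoid unit to lanosterol, all 5 enzymes were called lower in the CNS, where 37.2% of all genes tested were. Idi1, the isomerase that readies isopentenyl diphosphate for chain building, stood at 12.3 and 11.5 FPKM in the CNS and at 60.6 and 59.0 FPKM in the dLN. Its mean was 5.04-fold higher in the dLN, 59.8 ± 1.12 against 11.9 ± 0.573 (log2 ratio -2.24, SE 0.09, adjusted p = 8.98e-05), which placed it at percentile 4.39 of all genes tested. The related gene Idi2 was near 0 in the CNS, at 0.0457 and 0.247 FPKM, and at 2.91 and 2.31 FPKM in the dLN. Fdps, which makes farnesyl diphosphate, was at 28.8 and 31.5 FPKM in the CNS against 46.9 and 39.7 FPKM in the dLN (log2 ratio -0.51, SE 0.12, adjusted p = 0.0125), a call that was lost without CNS replicate 1 (adjusted p = 0.0821) and without dLN replicate 1 (adjusted p = 0.0633). An overlapping gene model on the same strand covers 77.4% of Fdps exon bases, so its value is uncertain. Fdft1, squalene synthase, had the smallest called change, with 10.8 and 12.3 FPKM in the CNS and 15.9 and 14.1 FPKM in the dLN (log2 ratio -0.35, SE 0.11, adjusted p = 0.0371). It lost the call whichever library was left out, with adjusted p from 0.0664 to 0.173, and with the same upper quartile per library (log2 ratio -0.23, adjusted p = 0.101), while the same sum per library gave -0.54 (adjusted p = 0.00665). Of its exon bases, 20.9% lie opposite Ctsb, a lysosomal protease gene at 73.2 and 91.3 FPKM in the CNS and 33.3 and 28.8 FPKM in the dLN.

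Squalene is oxidized by Sqle, and this step showed a wide gap, with 10.2 and 10.3 FPKM in the CNS and 35.8 and 36.7 FPKM in the dLN, 3.53-fold higher in the dLN (log2 ratio -1.72, SE 0.08, adjusted p = 0.000108). Lss, which folds the product into lanosterol, was at 5.30 and 4.77 FPKM against 11.5 and 9.40 FPKM (log2 ratio -0.92, adjusted p = 0.00227). Reads of Hmgcs1, Idi1 and Lss may also include antisense transcripts, whose gene models overlap 16%, 10.7% and 8.16% of their exon bases. With Hmgcs1, Fdps and Fdft1 left out, 13 genes of the remaining 32 tested (40.6%) were higher and 13 (40.6%) lower. Those shares were 37.8% and 37.2% over all genes tested. Scap, with an overlap of 18.6% of its exon bases, was kept among the 32 and was 1 of the lower ones.

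After lanosterol, the enzymes divided again. Cyp51, which removes a first methyl group from lanosterol, stood at 8.96 and 8.01 FPKM in the CNS and at 47.6 and 47.5 FPKM in the dLN. The means were 8.48 ± 0.671 (SD, n = 2) and 47.6 ± 0.0509, a 5.61-fold difference (log2 ratio -2.36, SE 0.09, adjusted p = 9.01e-05). Msmo1, the oxidase that starts removal of the remaining methyl groups, was at 12.8 and 10.8 FPKM in the CNS and at 42.3 and 37.6 FPKM in the dLN (log2 ratio -1.68, SE 0.12, adjusted p = 0.000281). Nsdhl, the next enzyme of that same demethylation complex, was higher in the CNS, at 10.7 and 9.88 FPKM against 5.26 and 4.45 FPKM (log2 ratio 0.95, SE 0.11, adjusted p = 0.00133). Hsd17b7, the ketoreductase that closes the cycle, was again lower, at 3.13 and 2.59 FPKM against 9.51 and 8.77 FPKM (log2 ratio -1.40, SE 0.12, adjusted p = 0.000439). Within 1 demethylation cycle, then, 2 enzymes were called lower in the CNS and 1 higher, where 37.2% and 37.8% of all genes tested were.

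The 4 remaining enzymes of the group were all called higher in the CNS, where 37.8% of all genes tested were. Ebp, which shifts a bond within the sterol ring, stood at 34.4 and 34.8 FPKM in the CNS and at 17.3 and 12.7 FPKM in the dLN, 2.31-fold higher (log2 ratio 1.17, SE 0.16, adjusted p = 0.00191). Dhcr7, a terminal reductase, was at 8.43 and 8.40 FPKM against 4.27 and 3.65 FPKM (log2 ratio 0.93, adjusted p = 0.00119). Sc5d, a desaturase, was at 24.3 and 21.7 FPKM against 17.0 and 15.8 FPKM (log2 ratio 0.46, adjusted p = 0.0107). Tm7sf2, another sterol reductase, was scarce, at 1.15 and 1.36 FPKM against 0.585 and 0.560 FPKM, where an estimated 13.8 and 15.7 fragments stood behind the dLN values (log2 ratio 0.52, or 1.01 with a pseudocount of 0.1, adjusted p = 0.025 with either). The call of Sc5d was lost without CNS replicate 1 (adjusted p = 0.052) or dLN replicate 2 (adjusted p = 0.0685) and with the same sum per library (log2 ratio 0.27, adjusted p = 0.0804), and that of Tm7sf2 without dLN replicate 1 (adjusted p = 0.0762) or dLN replicate 2 (adjusted p = 0.0776). Because FPKM is per length, Cyp51 and Ebp can be set against each other in 1 library, and Cyp51 was at 0.26 and 0.23 of the Ebp level in the CNS and at 2.75 and 3.73 times it in the dLN.

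**Figure D2:**
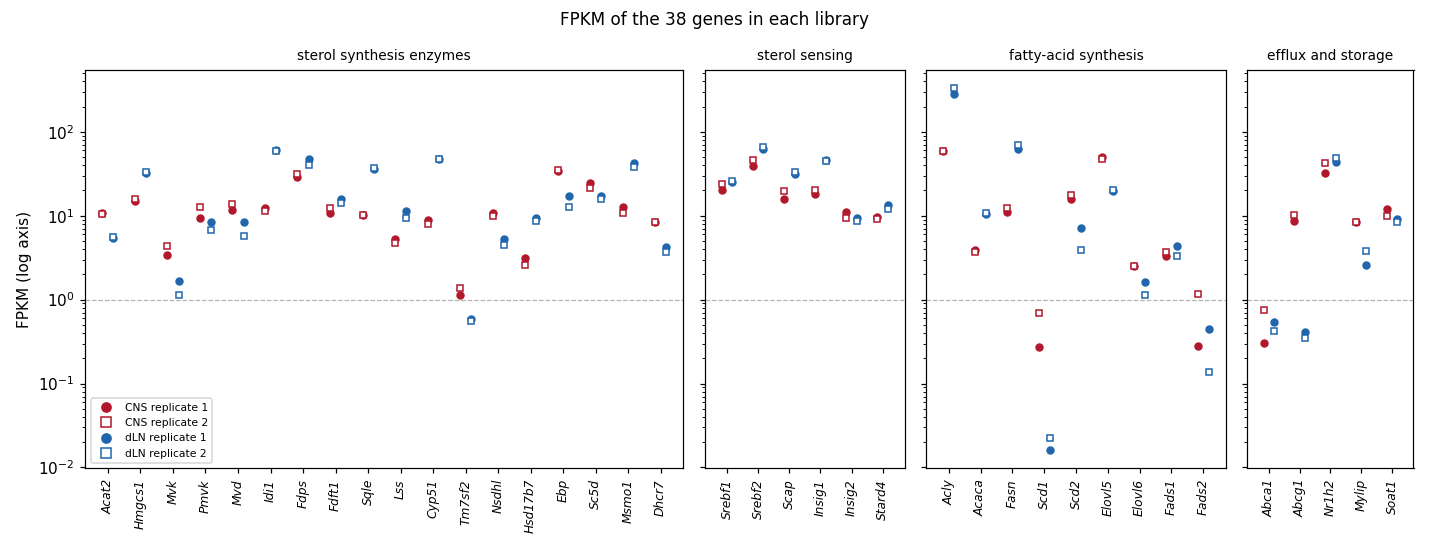
FPKM (log axis) of the 38 genes by role, with 1 point per library, red for CNS and blue for dLN, filled for replicate 1 and open for replicate 2, and a dashed line at 1 FPKM. Points of a tissue lie close together for Idi1, Cyp51 and Fasn, and the CNS and dLN points of Srebf1, Insig2 and Fads1 lie near or among each other.

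Of the 6 genes of sterol sensing, 0 were called higher in the CNS, 4 (66.7%) lower and 2 were not called. Over all genes tested 74.9% were called, 37.8% higher and 37.2% lower. The median log2 ratio of the group was -0.51. Srebf2, the factor that mainly drives sterol genes, stood at 39.1 and 46.6 FPKM in the CNS and at 63.2 and 65.7 FPKM in the dLN, 1.504-fold higher in the dLN (log2 ratio -0.58, SE 0.11, adjusted p = 0.00662). Srebf1, whose products mainly drive fatty-acid genes, was at 20.2 and 24.1 FPKM in the CNS and at 25.3 and 26.0 FPKM in the dLN, and was not called (log2 ratio -0.21, SE 0.11, adjusted p = 0.150). It was called lower without CNS replicate 2 (log2 ratio -0.33, adjusted p = 0.0449) and with the same sum per library (-0.40, adjusted p = 0.0169), and came to -0.09 without CNS replicate 1 (adjusted p = 0.384) and -0.08 with the same upper quartile (adjusted p = 0.532). In each library Srebf2 stood above Srebf1, by 1.94 and 1.93 times in the CNS and by 2.49 and 2.53 times in the dLN.

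Insig1, an Insig gene that is itself a target of the Srebp factors, showed the widest gap of the group. It was at 18.3 and 20.0 FPKM in the CNS and at 46.2 and 44.6 FPKM in the dLN, 2.37-fold higher in the dLN (log2 ratio -1.20, SE 0.09, adjusted p = 0.000308). Insig2, its relative, overlapped between tissues at 11.1 and 9.36 FPKM against 9.46 and 8.69 FPKM and was not called (log2 ratio 0.16, SE 0.12, adjusted p = 0.278). Under the alternatives its log2 ratio ran from -0.02 with the same sum per library (adjusted p = 0.874) to 0.78 by its highest transcript (adjusted p = 0.0880), never past the threshold, with 0.04 without CNS replicate 1 and 0.27 without CNS replicate 2. The Insig1 level was 1.65 and 2.14 times that of Insig2 in the CNS and 4.89 and 5.13 times in the dLN. Stard4, a carrier of sterol between membranes, was at 9.57 and 9.05 FPKM in the CNS and at 13.6 and 12.2 FPKM in the dLN (log2 ratio -0.43, adjusted p = 0.0132), a call lost without CNS replicate 1 (adjusted p = 0.0558), CNS replicate 2 (adjusted p = 0.0815) or dLN replicate 1 (adjusted p = 0.0784).

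Scap, the escort of the Srebp factors, was at 15.9 and 19.7 FPKM in the CNS and at 31.4 and 32.8 FPKM in the dLN, 1.81-fold higher in the dLN (log2 ratio -0.83, SE 0.13, adjusted p = 0.00298). The difference sat in 1 of its 2 RefSeq transcripts. The transcript of 4226 bases was at 14.4 and 13.8 FPKM in the CNS and at 12.8 and 13.8 FPKM in the dLN, while the one of 4138 bases, which starts upstream of it, was at 1.43 and 5.88 FPKM in the CNS and at 18.7 and 19.1 FPKM in the dLN. The shorter one thus held 9.04% and 29.9% of the Scap FPKM in the CNS and 59.4% and 58.0% in the dLN. With each gene taken by its highest transcript, the log2 ratio of Scap was 0.08 (adjusted p = 0.466). The authors' program apportioned reads among transcripts, no test was run on transcripts, and a gene model on the opposite strand overlaps 18.6% of Scap exon bases.

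For Hmgcs1 and Acly, by contrast, each of 2 transcripts had less FPKM in both CNS libraries than in either dLN library, without a test. The 2 transcripts of Hmgcs1 were at 12.9 and 11.4 FPKM (3518 bases) and at 2.13 and 4.31 FPKM (3577 bases) in the CNS, and at 20.6 and 20.0 FPKM and at 11.6 and 13.1 FPKM in the dLN. For Insig2 the split differed between CNS libraries, since the transcript of 2461 bases held 55.4% of its FPKM in CNS replicate 1 and 3.07% in CNS replicate 2, and 62.8% and 59.3% in the dLN libraries.

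**Figure D3:**
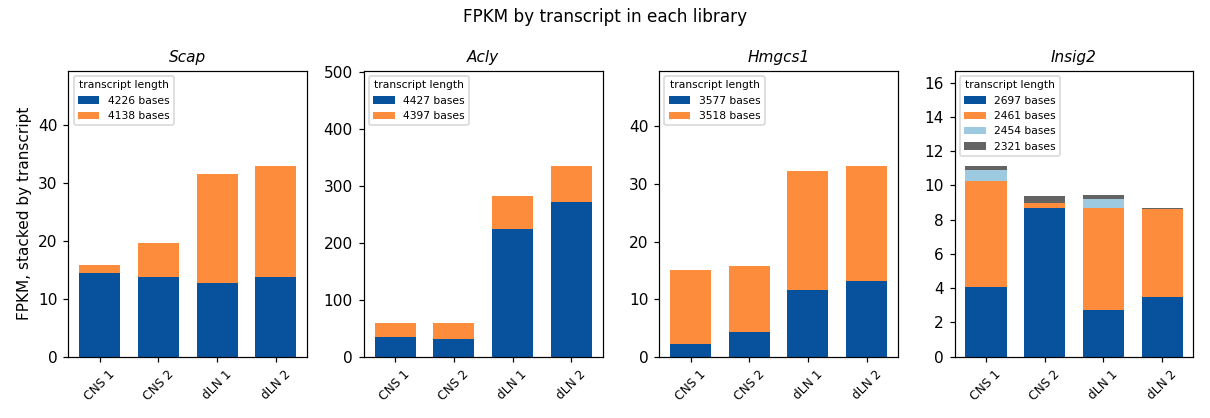
FPKM of the RefSeq transcripts of Scap, Acly, Hmgcs1 and Insig2 in each library, as stacked bars with 1 colour per transcript length. The Scap transcript of 4226 bases is level across the 4 libraries, and the one of 4138 bases runs from 1.43 FPKM in CNS replicate 1 to 19.1 FPKM in dLN replicate 2.

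Of the fatty-acid synthesis genes, 3 of 7 tested (42.9%) were higher in the CNS and 3 (42.9%) lower, near the 37.8% and 37.2% of all genes tested, with 1 not called and 2 under the minimum level. The genes that build the saturated chain were the lower ones. Acly, which cleaves citrate to supply cytosolic acetyl-CoA for both routes, was the most abundant of all 38 genes in every library and lies at chr11:100476352-100528000 (mm10, minus strand). It stood at 59.3 and 58.5 FPKM in the CNS and at 282 and 335 FPKM in the dLN, and its mean of 309 ± 37.1 in the dLN was 5.24-fold higher than 58.9 ± 0.576 in the CNS (log2 ratio -2.37, SE 0.11, adjusted p = 9.94e-05). The Acly transcript of 4427 bases took 58.4% and 53.4% of its FPKM in the CNS and 79.2% and 81.3% in the dLN. Acaca, which carboxylates acetyl-CoA to malonyl-CoA, was at 3.95 and 3.65 FPKM against 10.4 and 10.9 FPKM, 2.80-fold higher in the dLN (log2 ratio -1.28, SE 0.10, adjusted p = 0.000313). Fasn, the synthase that extends the chain from malonyl-CoA, was at 11.1 and 12.3 FPKM in the CNS and at 62.7 and 70.5 FPKM in the dLN. With means of 11.7 ± 0.9 and 66.6 ± 5.55, Fasn was 5.70-fold higher in the dLN (log2 ratio -2.41, SE 0.11, adjusted p = 9.74e-05), at percentile 3.55 of all genes tested.

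Among the fatty-acid synthesis genes tested here, those that lengthen or desaturate a finished chain were higher in the CNS or not called. Most elongation and desaturation genes tested outside this group were called lower in the CNS. These were Elovl1 (log2 ratio -0.88), Hsd17b12 (-1.65), Hacd1 (-1.28), Hacd2 (-0.37), Hacd3 (-1.51) and Fads6 (-1.33), whereas Tecr (0.98) was called higher. Elovl5, an elongase of polyunsaturated chains, was at 50.1 and 47.6 FPKM in the CNS and at 19.8 and 20.5 FPKM in the dLN, 2.42-fold higher in the CNS (log2 ratio 1.24, SE 0.08, adjusted p = 0.000236). Scd2, a desaturase of saturated chains, was higher in the CNS at 15.8 and 17.5 FPKM, against 7.22 and 3.89 FPKM in the dLN, where its replicates differed 1.85-fold (log2 ratio 1.47, SE 0.26, adjusted p = 0.0051). Its call was lost without CNS replicate 1 (adjusted p = 0.0578) or CNS replicate 2 (adjusted p = 0.0671). Elovl6, an elongase of saturated chains, was at 2.52 and 2.55 FPKM against 1.63 and 1.14 FPKM (log2 ratio 0.58, SE 0.15, adjusted p = 0.0201), a call lost without CNS replicate 1 (adjusted p = 0.0744), CNS replicate 2 (adjusted p = 0.0732) or dLN replicate 2 (adjusted p = 0.0812). Fads1, a desaturase of polyunsaturated chains, overlapped between tissues, at 3.31 and 3.67 FPKM against 4.35 and 3.35 FPKM, and was not called (log2 ratio -0.10, adjusted p = 0.533). Its log2 ratio ran from -0.26 with the same sum per library to 0.05 without dLN replicate 1, and no alternative called it.

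The related desaturases Scd1 and Fads2 were too low to test. Scd1 was at 0.276 and 0.685 FPKM in the CNS and at 0.0160 and 0.0227 FPKM in the dLN, where about 1.36 and 2.3 fragments stood behind the values. Fads2 was at 0.282 and 1.16 FPKM in the CNS and at 0.449 and 0.137 FPKM in the dLN, so the tissues overlapped. Among the 38 genes, Abca1 was the only other gene under the minimum.

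Efflux and storage genes had 2 of 4 tested (50%) higher in the CNS, 0 lower and 2 not called. The shares over all genes tested were 37.8% higher and 37.2% lower. Abcg1, a transporter that exports sterol and is a known target of liver X receptors, had the largest log2 ratio in size of the 35 tested genes and lies at chr17:31057694-31117981 (mm10, plus strand). It stood at 8.63 and 10.2 FPKM in the CNS and at 0.412 and 0.346 FPKM in the dLN, and its mean of 9.42 ± 1.12 (SD, n = 2) was 24.9-fold that of 0.379 ± 0.0467 in the dLN (log2 ratio 2.91, SE 0.13, adjusted p = 9.81e-05). About 1006 and 1224 fragments in the CNS and 42.2 and 42.4 fragments in the dLN stood behind these values, and the log2 ratio was at percentile 97.4 of all genes tested. The myeloid marker sum was 257 FPKM in CNS replicate 2 and 28.9 FPKM in CNS replicate 1, and without CNS replicate 2 the log2 ratio of Abcg1 was 2.81 (adjusted p = 0.00451). Mylip, a ubiquitin ligase that liver X receptors are known to induce, was at 8.36 and 8.43 FPKM in the CNS and at 2.57 and 3.83 FPKM in the dLN, 2.62-fold higher (log2 ratio 1.18, SE 0.17, adjusted p = 0.00249).

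Abca1, the companion exporter, did not follow Abcg1. It was at 0.303 and 0.746 FPKM in the CNS and at 0.535 and 0.418 FPKM in the dLN, under the minimum for a test and with overlapping tissues. Abcg1 was thus at 28.5 and 13.7 times the Abca1 level in the CNS and at 0.769 and 0.827 of it in the dLN. Nr1h2, which encodes the liver X receptor beta, was at 32.6 and 42.1 FPKM in the CNS and at 43.4 and 48.7 FPKM in the dLN and was not called (log2 ratio -0.30, SE 0.15, adjusted p = 0.120). It was called lower without CNS replicate 2 (-0.48, adjusted p = 0.0384), with the same sum per library (-0.50, adjusted p = 0.0199) and by its highest transcript (-0.64, adjusted p = 0.0102), and came to -0.12 without CNS replicate 1 (adjusted p = 0.376) and -0.17 with the same upper quartile (adjusted p = 0.318). Soat1, which esterifies cholesterol for storage, was at 12.15 and 10.01 FPKM against 9.19 and 8.48 FPKM and was not called (log2 ratio 0.29, SE 0.12, adjusted p = 0.0833). It was called higher with the same upper quartile (0.42, adjusted p = 0.0314) and came to 0.11 with the same sum per library (adjusted p = 0.488) and 0.16 without CNS replicate 1 (adjusted p = 0.285).

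Replicates were close for most of these genes. The higher replicate was at a median of 1.11 times the lower one over the 35 tested genes in the CNS, and at 1.12 times in the dLN. The widest gaps were 1.34 times for Pmvk in the CNS and 1.85 times for Scd2 in the dLN.

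Promoter sequence was examined because the Srebp factors are known to switch on synthesis genes, and synthesis genes went in both directions here. RefSeq windows of build GRCm38.p6 (mm10), from 250 bases before to 50 bases after an annotated start, matched 30 of the 38 genes. The 8 without a window were Fdps, Fdft1, Sqle, Stard4, Scd1, Scd2, Fads1 and Abcg1, so the motif counts leave them out. The motifs searched, on both strands, were TCACNCCAC (a form of the sterol regulatory element), CCAAT (the NF-Y box), CACGTG (an E-box) and GGGCGG (a GC box), and no motif holds another within it. TCACNCCAC was in the windows of 1 of 30 genes, Hmgcs1, against 1.436% of all 27025 genes with a window. CCAAT was in 23 of 30 (76.67%) against 41.06% of all genes, and in 9 of 11 genes called higher and 10 of 12 called lower. CACGTG was in 7 of 30 (23.33%) against 8.093%, with 3 of 11 higher and 3 of 12 lower, and GGGCGG in 24 of 30 (80%) against 38.2%. The 27025 genes were not limited to those tested for expression, and motif shares over the tested genes alone were not computed. A match is a description of letters and not a binding site.

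The 180 bases upstream of the start are given for 8 genes, chosen after their values were seen, because they include 6 genes with large falls (Hmgcs1, Idi1, Cyp51, Msmo1, Insig1, Fasn) and 2 with rises (Ebp, Elovl5) and let the motifs be read in both. Each runs 5′ to 3′ on the strand of the gene and ends next to the start, and capitals mark TCACNCCAC, CCAAT (or its reverse complement ATTGG) and CACGTG.
Hmgcs1: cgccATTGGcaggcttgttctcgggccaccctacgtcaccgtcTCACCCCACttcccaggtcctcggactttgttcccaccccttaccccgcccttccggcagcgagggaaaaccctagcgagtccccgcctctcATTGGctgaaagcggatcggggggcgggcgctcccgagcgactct
Idi1: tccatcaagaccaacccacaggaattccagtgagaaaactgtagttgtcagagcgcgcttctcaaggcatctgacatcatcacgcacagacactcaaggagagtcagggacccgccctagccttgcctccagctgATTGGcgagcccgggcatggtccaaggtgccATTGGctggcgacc
Cyp51: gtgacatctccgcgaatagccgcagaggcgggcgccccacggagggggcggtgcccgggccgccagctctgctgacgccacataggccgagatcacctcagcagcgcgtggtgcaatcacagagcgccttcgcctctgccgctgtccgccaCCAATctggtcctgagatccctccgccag
Msmo1: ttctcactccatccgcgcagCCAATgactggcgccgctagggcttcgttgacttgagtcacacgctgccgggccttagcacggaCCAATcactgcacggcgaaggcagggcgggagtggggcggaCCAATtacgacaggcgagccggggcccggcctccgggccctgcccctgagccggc
Insig1: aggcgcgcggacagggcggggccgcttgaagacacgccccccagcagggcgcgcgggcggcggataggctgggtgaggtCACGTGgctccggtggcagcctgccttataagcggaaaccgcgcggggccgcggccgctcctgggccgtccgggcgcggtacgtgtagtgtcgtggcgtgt
Fasn: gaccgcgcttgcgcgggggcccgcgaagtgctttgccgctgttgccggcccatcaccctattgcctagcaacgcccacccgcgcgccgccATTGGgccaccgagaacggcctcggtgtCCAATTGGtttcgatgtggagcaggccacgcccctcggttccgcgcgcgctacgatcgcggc
Ebp: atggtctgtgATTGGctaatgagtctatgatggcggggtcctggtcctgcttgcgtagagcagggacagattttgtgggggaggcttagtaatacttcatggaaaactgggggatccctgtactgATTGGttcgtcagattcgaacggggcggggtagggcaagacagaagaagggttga
Elovl5: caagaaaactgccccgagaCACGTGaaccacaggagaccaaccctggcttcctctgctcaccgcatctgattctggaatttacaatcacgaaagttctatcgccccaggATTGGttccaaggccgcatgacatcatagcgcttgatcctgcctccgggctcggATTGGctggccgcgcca
Positions were chr13:119690171-119690350 (plus strand) for Hmgcs1, chr13:8885426-8885605 (plus) for Idi1, chr5:4104698-4104877 (minus) for Cyp51, chr8:64733579-64733758 (minus) for Msmo1, chr5:28071232-28071411 (plus) for Insig1, chr11:120824548-120824727 (minus) for Fasn, chrX:8193513-8193692 (minus) for Ebp and chr9:77917185-77917364 (plus) for Elovl5. Each window ends at the base before the first exon of its gene. The TCACCCCAC of Hmgcs1 starts at -137 relative to the start. In Fasn the run CCAATTGG holds a match on each strand. Ebp and Elovl5, higher in the CNS, carry 2 CCAAT matches each in the bases shown. So do Hmgcs1 and Idi1, both higher in the dLN, by 5.04-fold for Idi1. Of the other genes higher in the dLN, Msmo1 and Fasn carry more, Cyp51 carries fewer, and Insig1 shows only a CACGTG.

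Beyond the 38 genes, lists of further pathway genes were counted in the same fit, where 37.8% of all genes tested were higher and 37.2% lower. The isoprenoid, dolichol and ubiquinone branch, which leaves the route at farnesyl diphosphate, had 0 of 14 genes higher in the CNS. In this branch 10 (71.4%) were lower and 4 not called, with a median log2 ratio of -0.86. Its largest fall was in Pdss1, which makes the side chain of ubiquinone, at 1.48 and 1.02 FPKM in the CNS and 7.19 and 7.24 FPKM in the dLN (log2 ratio -1.87, adjusted p = 0.00031). Genes of Srebp processing and degradation, listed together with the transcription genes Nfya, Nfyb, Nfyc, Sp1 and Med15, had 21 tested. Of these, 2 (9.52%) were higher, 12 (57.1%) lower and 7 not called, with a median of -0.25. Nfya, Nfyc and Sp1 were among the lower ones, and Nfyb and Med15 were not called. In that list the largest fall was in Syvn1, a ubiquitin ligase of the endoplasmic reticulum, at 8.56 and 9.24 FPKM against 29.0 and 25.0 FPKM (log2 ratio -1.50, adjusted p = 0.000306). The largest called rise was in Aup1, a partner of such ligases (log2 ratio 0.35, adjusted p = 0.0176). Sec24d had a log2 ratio of 0.54 but was not called (adjusted p = 0.168).

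Other genes of sterol transport, uptake, storage and oxysterols went both ways, with 10 of 20 tested (50%) higher and 7 (35%) lower. All genes tested stood at 37.8% higher and 37.2% lower. Gramd1b, which moves sterol from the plasma membrane to the endoplasmic reticulum, had the largest fall, from 154 and 186 FPKM in the dLN to 17.6 and 20.4 FPKM in the CNS (log2 ratio -3.09, adjusted p = 9.45e-05). Abca7, a lipid transporter, had the largest rise, at 12.2 and 14.0 FPKM in the CNS and 2.67 and 1.49 FPKM in the dLN (log2 ratio 2.22, adjusted p = 0.000618).

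Other genes of fatty-acid synthesis, activation and elongation had 4 of 20 tested (20%) higher in the CNS and 15 (75%) lower, with a median of -0.77. All genes tested stood at 37.8% higher and 37.2% lower. Acsl3, which activates fatty acids, had the largest fall, at 0.0746 and 0.245 FPKM in the CNS and 7.15 and 7.74 FPKM in the dLN (log2 ratio -2.87, adjusted p = 0.00011). Acss2, which makes cytosolic acetyl-CoA from acetate and so enters the route beside Acly, had the largest rise, at 20.9 and 17.4 FPKM in the CNS and 0.469 and 0.308 FPKM in the dLN (log2 ratio 3.86, adjusted p = 8.95e-05). The Acly level was 2.83 and 3.37 times that of Acss2 in the CNS and 603 and 1089 times in the dLN, where about 22.6 and 17.7 fragments stood behind the Acss2 values.

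**Figure D4:**
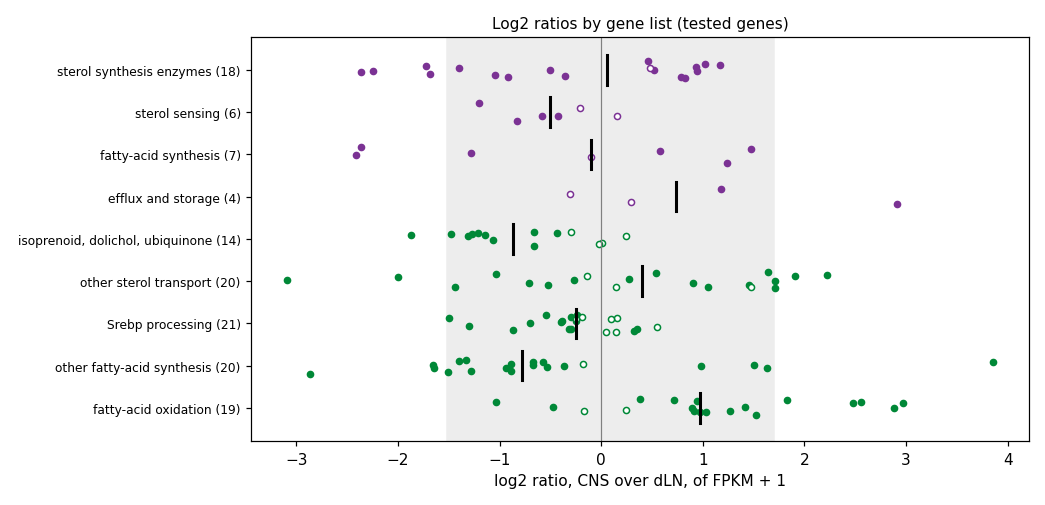
Log2 ratio (CNS minus dLN, log2(FPKM + 1) scale) of every tested gene in the 4 role groups and 5 further pathway lists, with 1 point per gene, filled where called, a bar at the median of each list and a grey band from the 10th to the 90th percentile of all genes tested. Medians run from -0.86 in the isoprenoid, dolichol and ubiquinone branch to 0.97 in the fatty-acid oxidation genes.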

How the data were processed

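RNA of effector CD4 cells was measured in 4 libraries, 2 from the CNS and 2 from the dLN. After trimming and mapping, the authors deposited FPKM values for 33819 RefSeq transcripts (mm10), with CNS and dLN in separate tables. The program that computed FPKM is not given in the sources used here, and neither is whether counting used strand. The CNS header holds both library names in 1 cell, and its 2 value columns were taken in that order.

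FPKM was summed by gene symbol. Left out were 565 transcripts that carry no symbol and hold 0.142% to 0.446% of a library's FPKM. Msmo1 was found under its older symbol Sc4mol by gene ID, and 6 further pathway or marker genes likewise. The model, with tissue and no covariate, was fitted to log2(FPKM + 1) with limma 3.58.1 (lmFit, then eBayes with trend) under R 4.3.3. The FPKM minimum of 1 followed the study's methods, which name no RNA-seq test. An exact permutation test of 2 against 2 cannot go below p = 0.333, so none was used. Depth was estimated from low FPKM values, of which 92.2% to 94.7% came within 0.1 of a whole number of fragments, and fragment numbers given are estimates. Python 3.11.15 with numpy 2.4.6, pandas 2.3.3 and matplotlib 3.10.9 did the rest. Exon overlaps came from GENCODE M21 and promoters from RefSeq.

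The members and lists were chosen with earlier results of these data known. All 38 genes were accounted for, and each further list named its largest called rise and fall. Some genes of these routes and of the marker lists are not reported here. The 16 alternatives covered the pseudocount, the filter, scaling, transcript choice, variance trend, replicate block, a log2 minimum and each library left out.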

Additional observations from a re-analysis of the deposited data

How the results depend on the processing

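Of 520 values of single genes under an alternative, 479 kept their direction and side of the threshold, 25 lost the call, 12 gained it and 4 changed sign. The 4 were Scap by its highest transcript (0.0823), Insig2 with the same sum per library (-0.0243), Fads1 with the same upper quartile (0.0023) and Fads1 without dLN replicate 1 (0.0457, against -0.254 without dLN replicate 2). The cause was not tested. When calls also had to reach 1 in size on the log2 scale, 4168 genes were called, among them 6 members higher and 10 lower. Leaving out 1 library at a time gave 6596 to 7363 genes called, 10 to 12 members higher, 13 to 16 lower, 25 to 29 other pathway genes higher and 34 to 37 lower, and the lone library of a tissue was then assumed to vary like the others. Scaling moved the median log2 ratio of all genes by -0.17 with the same sum per library (12 members higher, 18 lower) and by 0.12 with the same upper quartile (15 higher, 15 lower), both past 0.1 and so comparable with the smaller changes above. Replicate numbers were not taken to pair samples (correlation of replicate differences between tissues 0.0933), and with a replicate block 7828 genes were called, with 12 members higher and 15 lower, Fdft1 (adjusted p = 0.0594) and Tm7sf2 (adjusted p = 0.0565) losing the call. Without the filter, Scd1 had a log2 ratio of 0.52 (adjusted p = 0.0625), Fads2 0.37 (adjusted p = 0.394) and Abca1 0.03 (adjusted p = 0.894). Few fragments limit the precision of Scd1 in the dLN (about 1.36 and 2.3) and of Fads2 (about 3.93 to 32.5), while about 62.9 to 160 stood behind the values of the longer Abca1.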

Other observations

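Genes of fatty-acid oxidation, the route that burns chains in mitochondria and peroxisomes, were mostly higher in the CNS. Of 19 tested, 15 (78.9%) were higher, 2 (10.5%) lower and 2 not called, where 37.8% of all genes tested were higher and 37.2% lower. The median log2 ratio was 0.97. Summed over the list, FPKM was 569 and 547 in the CNS libraries and 267 and 246 in the dLN libraries. Eci2, an isomerase for unsaturated chains, had the largest rise, at 37.2 and 34.4 FPKM in the CNS and 4.18 and 3.24 FPKM in the dLN (log2 ratio 2.97, adjusted p = 9.62e-05). Cpt1a, which loads fatty acids for entry into mitochondria, was at 19.2 and 20.2 FPKM in the CNS against 5.70 and 4.09 FPKM in the dLN (log2 ratio 1.83, adjusted p = 0.000446). The 2 lower genes were Decr1, a reductase for unsaturated chains, at 2.61 and 2.53 FPKM against 6.36 and 6.25 FPKM (log2 ratio -1.03, adjusted p = 0.000611), and Acadvl, a dehydrogenase of very long chains, with a log2 ratio of -0.48 (adjusted p = 0.0135). Cpt1a and Acadvl were named after their values were seen.

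Among the sterol transport genes, Npc2, Lipa and Apoe were also looked at after their values were seen. Npc2, which carries cholesterol out of the lysosome lumen, was at 109 and 114 FPKM in the CNS and 34.4 and 32.4 FPKM in the dLN (log2 ratio 1.71, adjusted p = 0.000115). Lipa, the lysosomal enzyme that frees cholesterol from its esters, was at 22.2 and 19.5 FPKM against 6.51 and 4.94 FPKM (log2 ratio 1.71, adjusted p = 0.00048). Apoe, a lipid carrier abundant in myeloid and glial cells, was at 3.87 and 30.6 FPKM in the CNS and 3.60 and 3.35 FPKM in the dLN and was not called (log2 ratio 1.47, adjusted p = 0.184), and its high value lay in CNS replicate 2, the library with a myeloid marker sum of 257 FPKM. The part of myeloid RNA in these values was not tested.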
